A study of Mus musculus with 6 samples.

Results

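Peaks of the pluripotency-associated protein Dppa2 that lay at non-coding RNA genes in mouse embryonic stem cells (ESCs) were examined. A peak was included when the transcription start site (TSS) nearest to its midpoint belonged to a gene annotated as long intergenic non-coding RNA (lincRNA), processed transcript, microRNA (miRNA), small nucleolar RNA (snoRNA), small nuclear RNA (snRNA), miscellaneous RNA or ribosomal RNA (rRNA). Of the 3336 peaks, 216 met this rule, which is 6.47% (95% exact Clopper-Pearson interval 5.66 to 7.36%, covering counting error only). They were assigned to 215 genes, as C330006A16Rik received 2 peaks. Of these peaks, 70 lay at lincRNAs, 89 at processed transcripts, 37 at miRNAs, 7 at snoRNAs, 6 at snRNAs, 6 at miscellaneous RNAs and 1 at an rRNA. The last 5 classes are called small RNA genes here and hold 57 peaks.

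The peaks come from chromatin immunoprecipitation followed by sequencing (ChIP-seq) with an anti-V5 antibody. The V5-Dppa2 group was CGR8, a feeder-free mouse ESC line grown on gelatin with LIF, carrying V5-tagged Dppa2 on a pPyCAG vector in stable clones selected with puromycin. The control group was CGR8 cells without the tag, and the ChIP was done on the same number of cells. Binding was therefore that of an expressed, tagged protein and not of the endogenous one. Each group was 1 library, so there is no replicate error and no test between conditions, and the depth of the libraries is unknown from a list of peaks. The authors' score of a peak is the negative log10 of its p-value in MACS, V5-Dppa2 against control, multiplied by 10. Peaks in the deposited list carry names made of TSS and a number, and the paper's supplement holds a data set of start sites bound by Dppa2. Whether the list was limited to peaks near starts is not stated in the sources used. Closeness to starts, the share of peaks at a gene class and the absence of a gene may therefore reflect how the list was made. This was not tested. The histone modification libraries of the series were not analysed here.

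Non-coding RNA genes are those whose RNA is not annotated as coding for a protein. Long non-coding RNAs such as Xist, which silences an X chromosome in female cells, are transcribed by RNA polymerase II from promoters like those of protein-coding genes, and many start next to a protein-coding gene on the opposite strand. miRNAs are cut from hairpins in longer transcripts and repress mRNAs that pair with their seed, so that the annotated start of a miRNA gene is the end of the hairpin and usually not a promoter. Most snoRNAs, which guide the chemical modification of other RNAs, are cut from introns of a host gene, while U6 snRNA, a part of the spliceosome, and 7SK RNA, which controls transcription elongation, are made by RNA polymerase III and have many inactive copies in the genome.

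The miRNAs at these peaks are identified by their mature sequences, which were taken from RefSeq (GRCm38.p6) and placed on mm9. RefSeq held 28 mature sequences for 16 of the 37 miRNA genes, all 28 were found on mm9, and 23 lay inside the peak. The other 21 miRNA genes carry clone names and had no RefSeq entry. The sequences below are those of the miRNA genes with the highest scores or with the peak centred on the hairpin, and of miR-675 from the imprinted H19 locus, and their capitals mark the seed at bases 2 to 8.
mmu-miR-1199-5p: uCUGAGUCccggucgcgcgg
mmu-miR-1199-3p: uGCGGCCGgugcucagucggc
mmu-miR-219a-5p: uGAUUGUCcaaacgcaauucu
mmu-miR-136-5p: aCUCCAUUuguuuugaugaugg
mmu-miR-136-3p: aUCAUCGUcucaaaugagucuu
mmu-miR-203-3p: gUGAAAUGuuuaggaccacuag
mmu-miR-218-5p: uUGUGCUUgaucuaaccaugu
mmu-miR-675-5p: uGGUGCGGaaagggcccacagu
mmu-miR-692: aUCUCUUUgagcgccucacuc
The last of these is the product of 3 of the genes, Mir692-1, Mir692-2a and Mir692-2b, which were the only genes among the 16 to share a seed. The 28 sequences held 26 distinct seeds.

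The long RNA starts differed widely in CpG content, and windows of 120 bp show this range. Each is given 5′ to 3′ on the strand of the gene, with each CG in capitals. The first 5 are centred on the TSS, at chr11:3548756-3548875 (minus strand) for Tug1, chrX:100678497-100678616 (minus) for Xist, chr5:136750806-136750925 (plus) for Gm16599, chr2:84499643-84499762 (plus) for Gm13718 and chr9:105235783-105235902 (plus) for Gm15619, all in mm9. The sixth is centred on the midpoint of the Xist peak at chrX:100677231-100677350 (minus), inside an exon and away from the TSS.
Tug1 TSS: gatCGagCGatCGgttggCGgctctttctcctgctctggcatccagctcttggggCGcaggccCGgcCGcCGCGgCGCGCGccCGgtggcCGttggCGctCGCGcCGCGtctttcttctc
Xist TSS: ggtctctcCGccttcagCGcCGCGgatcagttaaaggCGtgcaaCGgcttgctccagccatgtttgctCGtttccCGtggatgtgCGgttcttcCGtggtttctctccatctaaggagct
Gm16599 TSS: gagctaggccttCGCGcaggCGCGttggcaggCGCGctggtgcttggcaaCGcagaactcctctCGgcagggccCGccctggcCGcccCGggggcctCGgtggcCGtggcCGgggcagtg
Gm13718 TSS: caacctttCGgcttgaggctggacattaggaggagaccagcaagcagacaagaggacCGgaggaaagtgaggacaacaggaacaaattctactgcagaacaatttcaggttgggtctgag
Gm15619 TSS: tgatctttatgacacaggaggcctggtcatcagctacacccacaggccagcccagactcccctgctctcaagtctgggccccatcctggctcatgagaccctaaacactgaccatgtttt
Xist peak midpoint: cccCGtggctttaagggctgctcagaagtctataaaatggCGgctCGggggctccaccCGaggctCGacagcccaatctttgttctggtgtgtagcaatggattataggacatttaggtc
The windows hold 19 CG at Tug1, 10 at the Xist start, 14 at Gm16599, 2 at Gm13718 and 0 at Gm15619, and 5 at the Xist midpoint. The scores of these peaks did not follow that order, being 135 at Tug1, 423 at Xist, 804 at Gm16599, 717 at Gm13718 and 1568 at Gm15619. A window at the TSS need not describe the peak, as the Xist peak did not cover the start. The Gm15619 peak ran from -97 to 1804 bp from the start, with its midpoint at 853 bp. Its interval had an observed-to-expected CpG ratio of 0.478, and 82.4% of its 36-base words were repeated in mm9.

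As a background, 10.2% of all 37273 annotated genes (3819) had a peak midpoint within 1 kb of one of their TSSs. Among lincRNA genes the share was 12.3% (157 of 1273, interval 10.6 to 14.3%), and among protein-coding genes it was 14.2% (3168 of 22367, interval 13.7 to 14.6%). The share was lower in every other non-coding class. It was 6.07% for processed transcripts (156 of 2572), 3.80% for miRNAs (60 of 1577), 1.23% for miscellaneous RNAs (6 of 487), 0.709% for snoRNAs (11 of 1552) and 0.562% for snRNAs (8 of 1423). For rRNA genes it was 0 of 332, with an upper limit of 1.11%. These counts exceed the 216 peaks because a gene also counts when the nearest TSS of the peak belongs to a neighbour.

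The scores of the 216 peaks ran from 102 to 1638, with a median of 262 and quartiles at 169 and 403. The other 3120 peaks had a median of 227 and quartiles at 155 and 345. Both distributions overlapped broadly, and the values of the 216 were higher at each quartile. A score of at least 200 (p of 1e-20 or less) was reached by 59.3% of all peaks, by 64.8% (140 of 216, interval 58.0 to 71.2%) of those at non-coding RNA genes and by 58.9% of the others. Among the top 10% of all peaks by score were 30 of the 216 (13.9%, interval from 9.57%) and 304 of the 3120 others (9.74%). Class medians were 261 for lincRNAs, 259 for processed transcripts, 264 for miRNAs and 347 for the 20 remaining small RNA peaks. The medians of the first 3 classes lay within a few score units of each other. Widths had a median of 1425 bp, against 1434 bp for the other peaks.

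**Figure D1:**
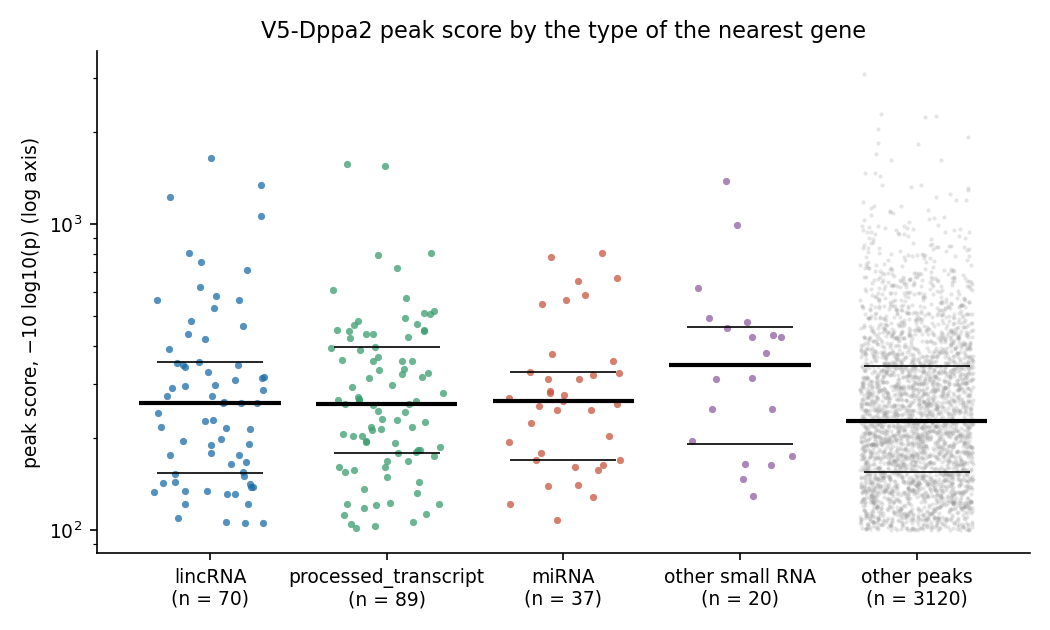
Score of each Dppa2 peak (points, log axis; the score is −10 log10 of the p-value) by class of the gene with the nearest TSS, with the median (thick line) and quartiles (thin lines). The medians of lincRNA (261), processed transcript (259) and miRNA (264) peaks sit close together, that of the 20 other small RNA peaks is 347, and that of the 3120 other peaks is 227.

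Among the 70 lincRNA peaks, the highest score was found at 9530052E02Rik, on the plus strand of chromosome 8. This peak spans chr8:11003759-11010171, is 6413 bp wide, the widest of the 216, and ranked 10 of all peaks with a score of 1638. Its midpoint lay 885.5 bp upstream of the lincRNA start, inside Irs2, which encodes an insulin receptor substrate and is transcribed from the opposite strand. The peak also covers the Irs2 start, which is 608 bp from that of the lincRNA, so the peak cannot be ascribed to 1 of the 2 genes. F630040L22Rik had a score of 1343 (chr9:108006825-108010803), with the midpoint 1517.5 bp into the gene and inside Bsn on the opposite strand, which encodes Bassoon, a protein of the presynaptic active zone. A230004M16Rik (1226) and Gm17463 (1063) followed, and both lay in repeated sequence, with 90.0% and 100% of their 36-base words present more than once in mm9. The next in order were free of such repeats, namely Gm16599 (804) inside Cux1, which encodes a homeobox protein, Gm16793 (752) inside Mfhas1, and Ppp1r3e (706), named after a regulatory subunit of protein phosphatase 1. The last 3 were Gm16997 (622), Gm16862 (583) and Gm17699 (567), and in Gm17699 79.2% of 36-base words were repeated.

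Of the lincRNAs with a gene name of their own, Xist had the highest score outside the 10. The Xist peak spanned chrX:100676610-100677971 and had a score of 423, rank 562. It began 585 bp and ended 1946 bp downstream of the annotated Xist TSS, with its midpoint in an exon at 1266 bp, so the start itself was not covered. None of its 36-base words occurred elsewhere in mm9. Tug1, a lncRNA transcribed in many tissues, had a weaker peak at chr11:3548284-3549936 with a score of 135, rank 2815. It covered the Tug1 TSS and that of Morc2a, 682 bp away on the opposite strand, and its midpoint lay 294.5 bp from the Tug1 start, between both. The Tug1 peak did not reach a score of 200. Wbscr25 had a score of 261, Ttc28 one of 199 and Gpr137b-ps one of 122. The Gpr137b-ps peak shared sequence with the peak at Gpr137b.

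**Figure D2:**
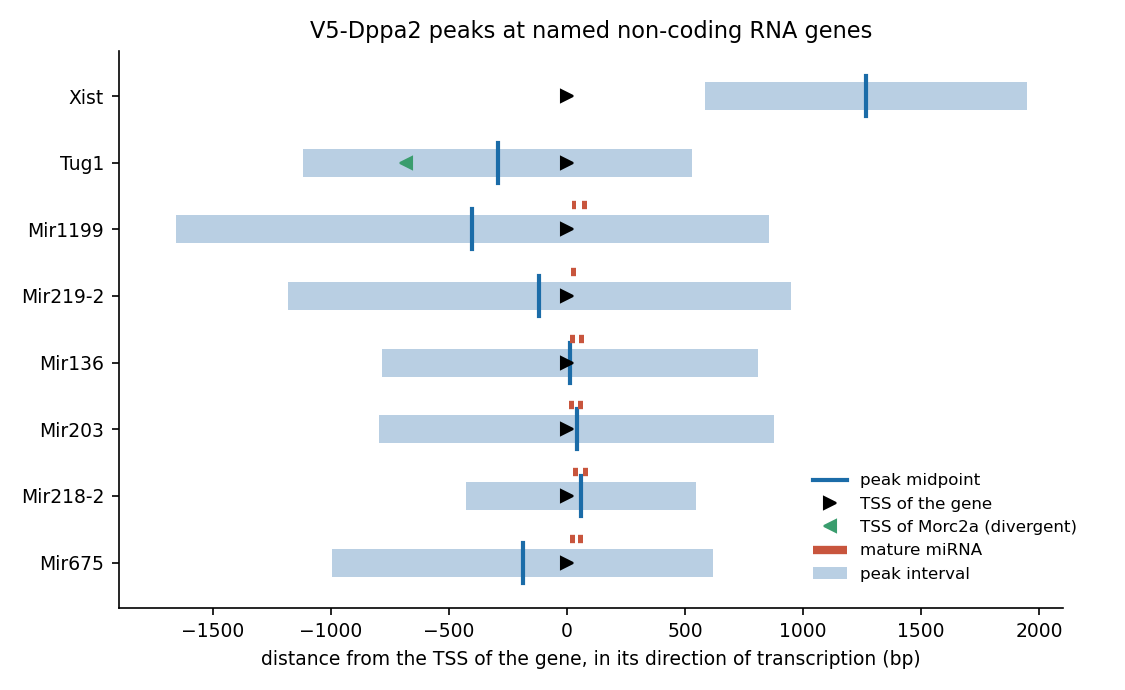
Position of the Dppa2 peak (pale bar, midpoint as a dark line) at 8 named genes, in bp from the TSS of the gene (black arrow) in its direction of transcription; red marks are mature miRNAs and the green arrow is the Morc2a TSS. The Xist peak lies wholly downstream of the TSS, from 585 to 1946 bp, and the peaks at Mir136, Mir203 and Mir218-2 are centred within 57.5 bp of the hairpin start.

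Of a list of 77 symbols of known long non-coding RNA genes, 31 were in the annotation, and 4 of these (12.9%) had a midpoint within 1 kb of a TSS. This share lies near those of all annotated genes (10.2%) and of lincRNA genes (12.3%). They were Tug1, H19 (426 bp, the peak assigned to Mir675), Nespas (212 bp, score 191) and Snhg9 (882.5 bp, score 450), and only Tug1 was itself the nearest gene. Xist was the nearest gene at 1266 bp. For Rian, an RNA of the imprinted Dlk1-Dio3 region, the nearest midpoint was 8.62 kb away and belonged to the Mir136 peak. The nearest midpoint was 46.1 kb from Meg3 and 47.6 kb from Neat1. A weaker signal at these genes would not appear in a list with a score threshold.

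The 89 peaks at processed transcripts, a GENCODE label for transcripts without an open reading frame that fall in no narrower class, had scores from 102 to 1568. The highest was at Gm15619 on chromosome 9 (chr9:105235746-105237647, rank 13), inside Nek11, a protein kinase gene on the opposite strand, and 82.4% of its 36-base words were repeated. Gm11611 (1548) on chromosome 11 lay within Srcin1 on the same strand, with the midpoint 1375.5 bp before its start. Gm13205 (807) lay within Casz1, which encodes a zinc-finger transcription factor, at 1927 bp upstream of its own start. Gm16280 (792) lay within Stab2, a scavenger receptor gene, and Gm13718 (717) had Ctnnd1 as its nearest protein-coding gene. Gm11978 (608) lay inside Ramp3, Gm17118 (512) inside Cacna2d2 and 4930544D05Rik (508) inside Chrne, genes for a receptor-modifying protein, a calcium channel subunit and a subunit of the acetylcholine receptor. Gm16302 (572) and 4933427J07Rik (520) complete the 10, with 32.4% and 77.3% of repeated words.

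Further processed transcripts with a gene name of their own spanned the score range. Spata5l1 had a score of 450 and Ccdc24 one of 447. Smarca5-ps, a pseudogene of a chromatin remodeller, and Zfp783, of a zinc-finger family, both had 357. RP23-341C5.10 had 318, Slc2a4rg-ps 256.3, H2-Q8 (a class I histocompatibility gene) 194, and Pdf (peptide deformylase) 187. The lowest were C78197 at 150, RP24-263P17.1 at 107, which starts divergently from Smad7, and Wscd2 at 102. Several of these names belong to protein-coding genes. In RefSeq, 109 of the 216 were matched by symbol on the same chromosome, and 71 of them were listed as lncRNA, 16 as miRNA and 16 as protein-coding. The 16 comprised 14 processed transcripts, among them Spata5l1, Ccdc24, H2-Q8, Pdf, Wscd2 and Gm13718 (Btbd18 in RefSeq), and the lincRNAs Ppp1r3e and Ttc28. For these, the class in the annotation of mm9 and that in RefSeq differ.

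Host genes, here lincRNAs or processed transcripts that contain a small RNA gene on their own strand, were 4 of the 216, and their scores were all low. Ttc28 (199) contains Mir701, A430104N18Rik (178) contains Mir142, a miRNA known from blood cells, Gm16936 (133) contains the miRNA gene AC110520.1, and Gm17683 (132) contains SNORA17 and SNORD50. Each of the 4 peaks covered the TSS of the host, and none reached a score of 200. Gm16936 starts 160 bp from Acan, the gene of the cartilage proteoglycan aggrecan, in the divergent direction. The Gm17683 peak lay in repeated sequence, with 65.2% of repeated words. Conversely, 21 of the 57 small RNA genes lay inside a longer gene on the same strand, which was protein-coding in 20 and H19 for Mir675. The start of the surrounding gene was mostly far from these peaks, at 72188.5 bp for Mir218-2 in Slit3, 12404.5 bp for Mir1968 in Grtp1, 9349 bp for Mir208a in Myh6 and 4822.5 bp for Mir671 in Chpf2. It was nearer at Mir877 in Abcf1 (1544 bp), Mir675 in H19 (426 bp), Mir692-2b in Gm10116 (414 bp) and Mir702 in Plod3 (366 bp).

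At the 37 miRNA genes, scores ran from 108 to 803, and the whole miRNA gene lay inside the peak in 32. The highest score was at AC155932.1 (803). Mir1199 followed with 783 (chr8:86534678-86537191), where both mature sequences printed above lay inside the peak and a protein-coding gene, 2210011C24Rik, starts 191 bp away on the same strand. AC132367.1, with Pkd1 as the nearest protein-coding gene, had 669. Mir219-2, whose product miR-219a-5p is known from oligodendrocytes, had 652 (chr2:29700300-29702431), with the midpoint 118 bp from the hairpin start. Mir136 had 587 (chr12:110832742-110834335), and its midpoint was 11 bp from the hairpin start. Mir136 lies antisense to Rtl1, a retrotransposon-derived gene of the same imprinted region, and 21.4% of its words were repeated.

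The remaining named miRNA genes had lower scores. Mir671 had a score of 377, Mir203, a miRNA of the skin, 328, and Mir218-2 in Slit3 321. The midpoints at Mir203 and Mir218-2 were 40 and 57.5 bp from the hairpin start, and the Mir218-2 peak was 72188.5 bp from the Slit3 TSS. Mir692-2b had 327, Mir148a 285, Mir208a, which lies in the cardiac myosin gene Myh6, 277, and Mir692-1 271. Mir675 in H19 had 203, Mir210, a miRNA induced by low oxygen, 194, Mir702 178, Mir877 170, Mir692-2a 140 and Mir1968 129. In 13 of the 16 genes all mature sequences lay inside the peak, and in Mir148a and Mir1968 none did. At Mir208a 1 of the 2 arms, miR-208a-3p, was inside.

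The 21 miRNA genes with clone names included the highest and the lowest score of the class. After AC155932.1 and AC132367.1 came AL732585.1 (567) and AC122860.1 (548), the latter near Gdf7, a growth factor gene. AL732585.1 starts divergently from the nearest Nelf TSS, but its peak midpoint lay inside Nelf. AL844840.2 had 357, AC125201.1 311 at the divergent start of Slain1, AC122821.1 311, AC125028.1 280, AC115005.1 264, AC150744.1 259, AC107770.1 254, AC123859.1 247, CR974466.1 247 and AL645470.1 224. The remaining 7 did not reach 200, namely AC124180.1 (170), AL845466.1 (163), AL669947.1 (160), AC161366.1 (157), AL808027.1 (139), BX005053.1 (122) and AC163694.1 (108). A protein-coding TSS lay inside the peak at 7 of the 21, against 3 of the 16 genes with a Mir name.

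Among the remaining 20 small RNA peaks, the whole gene lay inside the peak in 8. The highest score was at a U6 gene on chromosome 16 (1385, rank 18), which starts 45 bp outside the peak. The other U6 peaks had scores of 436 on X, 196 on chromosome 19, 165 on chromosome 9 and 148 on chromosome 14, and a U1 gene, also for a spliceosomal RNA, had 314. Of these 6 snRNA peaks only that at the U6 gene on X covered the start of the gene. SNORA17 was nearest to 3 peaks with scores of 617, 478 and 379, SNORA32 to 2 with 312 and 175, SNORD115 to 1 with 249 and SNORD88 to 1 with 163. Of the snoRNA peaks 3 held the whole gene. The 2 peaks nearest to 7SK genes were both on chromosome 11 and had scores of 991 and 494, and only the second covered its gene. RNaseP_nuc, the RNA component of the tRNA-processing enzyme RNase P, had 429, AC124584.1 429, AC158995.1 248 and AC093346.1 130. The only rRNA gene, n-R5s73, was 12788.5 bp from its peak (456), so that its place among the 216 rests on distance alone.

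**Figure D3:**
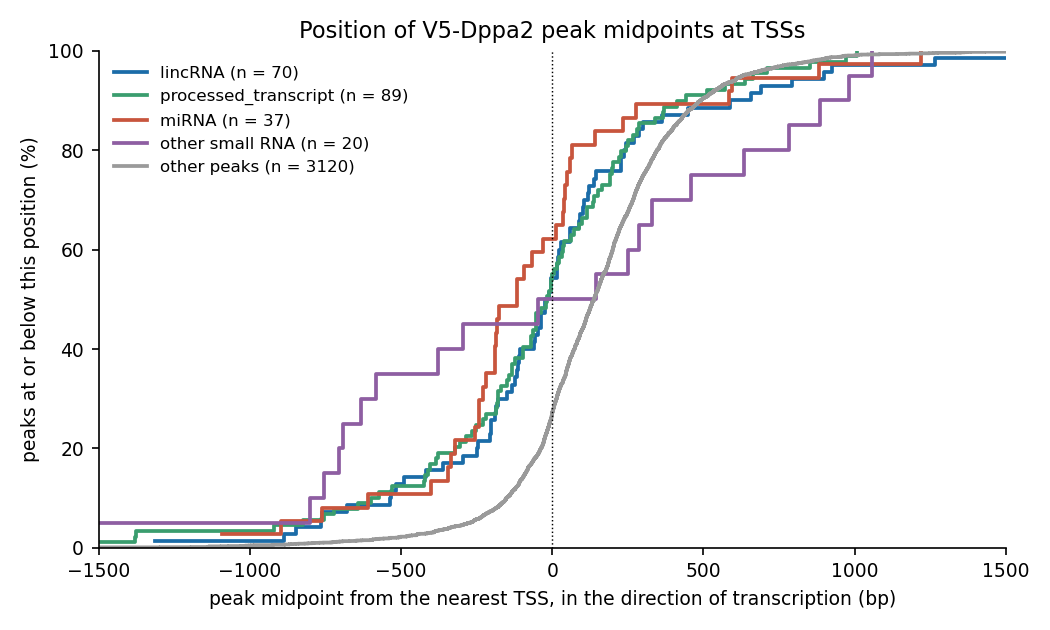
Cumulative distribution of the position of the peak midpoint from the nearest TSS, in bp in the direction of transcription. Curves are for lincRNA, processed transcript, miRNA, other small RNA and other peaks, and the farthest positions lie outside the axis. The medians are -17, -18, -118, 47.75 and 139 bp in that order.

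The midpoints at non-coding RNA genes were spread on both sides of the start. Of the 216, 120 (55.6%, interval 48.7 to 62.3%) lay upstream, compared with 27.0% of the other peaks. The median position was -32.5 bp, against 139 bp downstream for the other peaks, and -17 bp for lincRNAs, -18 bp for processed transcripts and -118 bp for miRNAs. The start lay inside the peak in 187 of the 216 (86.6%) and in 97.1% of the other peaks. For 205 of the 216 (94.9%) the midpoint was within 1 kb of the start, compared with 98.6% of the other peaks. As the list may hold only peaks near starts, these shares are not a measure of where Dppa2 binds in the genome. The 11 of the 216 that lay farther away were Gm11611, F630040L22Rik, Gm13205, AC155932.1, n-R5s73, Gm13441, Xist, Gm17201, AC125028.1, Gm2366 and the SNORA32 gene on chromosome 8.

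A protein-coding TSS lay within 1 kb of the midpoint in 87.5% of all peaks and in 59 of the 216 (27.3%, interval 21.5 to 33.8%). A low share follows from the rule, since a peak with a coding start nearest to its midpoint was not included. The share was 25 of 70 for lincRNAs, 23 of 89 for processed transcripts, 11 of 37 for miRNAs and 0 of 20 for the other small RNAs. In 33 of the 59 the coding gene overlapped on the opposite strand, in 19 it started divergently, and in 7 it ran on the same strand. The median score was 195 for the overlapping pairs, 161 for the divergent pairs and 217 for those on the same strand. In divergent pairs the midpoint had a median position of -245 bp from the coding start and lay between both starts in 10 of 19. In overlapping pairs its median position was 388.5 bp downstream of the coding start. Examples of divergent pairs are Tug1 with Morc2a, Gm16936 with Acan and 4930544D05Rik with Chrne. The median score was 191 for the 59 and 280 for the 157 peaks without such a TSS, with quartiles at 144 and 315 and at 193 and 439. The distributions overlapped broadly, and the values of the 157 were higher at each quartile. Sequence shared with another peak was found in 32 of the 157 (20.4%) and 3 of the 59 (5.08%). Without these peaks the medians were 277 (125 peaks) and 186 (56 peaks). The 157 were not free of coding starts, as 5 of them covered a protein-coding TSS farther than 1 kb from the midpoint. Of the 16 peaks at genes that RefSeq lists as protein-coding, only 3 were among the 59, although all 16 covered the assigned start. The midpoint lay inside a protein-coding gene in 126 of the 216 (58.3%) and in 79.9% of the other peaks. Of the 126, 96 had such genes only on the strand opposite to the assigned gene. The other 30 had such a gene on the same strand, in some cases beside another on the opposite strand. Counting the whole interval in place of its midpoint, 62 of the 216 peaks (28.7%) covered a protein-coding TSS, among them 29 of 70 lincRNA peaks (41.4%), and 90.8% of the other peaks did so.

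**Figure D4:**
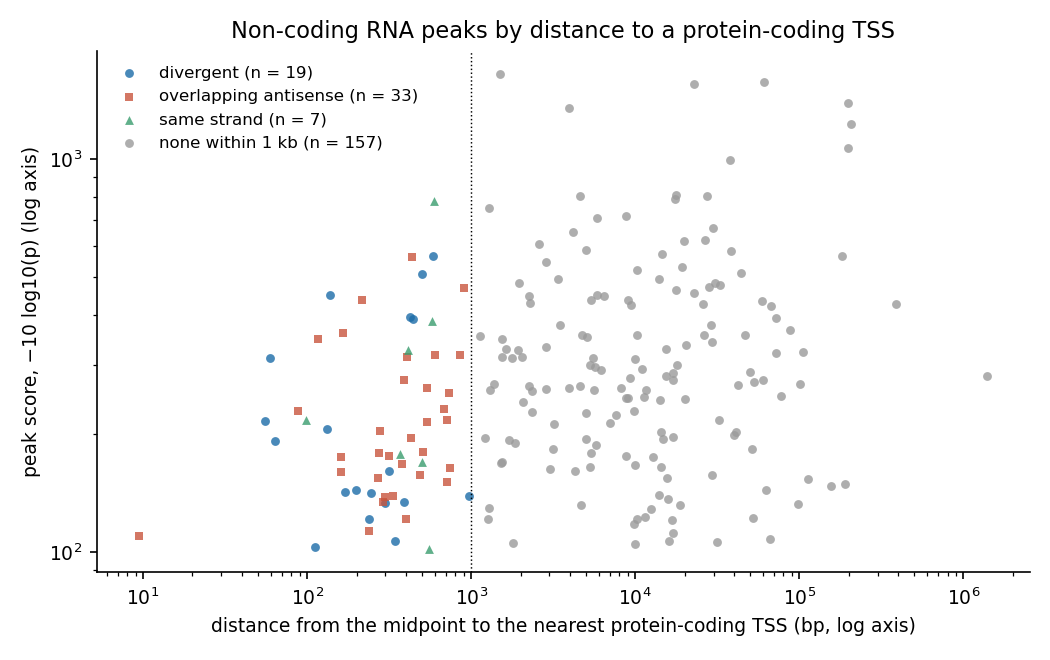
Distance from the peak midpoint to the nearest protein-coding TSS (log axis, bp) against the score (log axis) for the 216 peaks at non-coding RNA genes, by the arrangement of both starts (colours), with a dotted line at 1 kb. The 59 peaks within 1 kb have a median score of 191 and the 157 others one of 280.

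CpG content at the starts differed between the classes. The observed-to-expected CpG ratio over 1000 bp at the TSS had a median of 0.499 at the 216 and 0.778 at the other peaks. It was 0.660 for lincRNAs, 0.476 for processed transcripts, 0.379 for miRNAs and 0.293 for the other small RNAs. The last value largely describes sequence outside the peaks, as the start lay inside the peak in only 9 of 20. Over the peak interval the medians were 0.662, 0.468, 0.397 and 0.3645 in the same order, against 0.721 for the other peaks. A ratio of at least 0.6, a usual mark of a CpG island, was found at 43 of 70 lincRNA starts (61.4%), 31 of 89 processed transcript starts (34.8%), 10 of 37 miRNA starts (27.0%) and 2 of 20 of the other small RNA starts, compared with 74.9% of the other peaks. The GC content had a median of 58.4% at the 216 and 64.2% at the others.

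**Figure D5:**
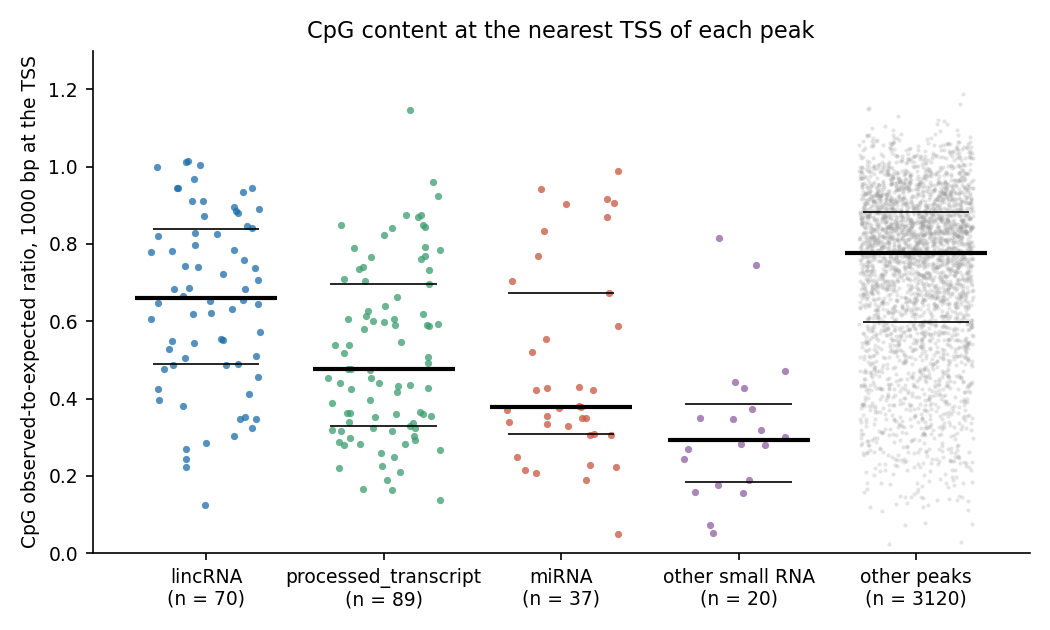
Observed-to-expected CpG ratio over 1000 bp at the nearest TSS of each peak (points), with median (thick line) and quartiles (thin lines). The medians fall from 0.660 for lincRNAs to 0.293 for the 20 other small RNAs, and the 3120 other peaks have 0.778.

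Short motifs were counted in the 300 bp around each midpoint, on both strands. The GC box (GGGCGG), bound by factors of the Sp family, was present in 41.2% of the 216 (89) and 63.1% of the other peaks. The CCAAT box (CCAAT) was present in 19.9% and 18.4%, and the core of the NRF1 motif (TGCGCA) in 9.26% and 10.4%. The E-box (CACGTG), bound by Myc and Usf proteins, was present in 11.1% of the 216 (24) and 5.29% of the others. It was found in 11 of 70 lincRNA peaks and 12 of 89 processed transcript peaks, but in 0 of 37 miRNA peaks. A match describes the sequence and is not a binding site.

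Some of the peaks shared their sequence with peaks elsewhere. With at least 85% identity over at least 300 bp, 35 of the 216 (16.2%, interval 11.6 to 21.8%) matched another peak, and so did 9.84% of the other peaks. The median score was 288 for the 35 and 259 for the rest of the 216. Among the other peaks it was 326 for the 307 that shared sequence and 220 for the 2813 that did not. As reads with several alignments were placed on the best or on 1 of equal ones, the score at such a peak can hold reads from another copy, and its part in these scores was not tested. A family of 17 peaks on 9 chromosomes held 6 of the 216, namely Gm15619, A230004M16Rik, Gm17463, 4933427J07Rik, a SNORA17 gene and a U6 gene. In the peaks of the first 4 and of the SNORA17 gene, on 5 chromosomes, a stretch of 80 bases was identical. The SNORA17 gene itself lay outside its peak, so the stretch is not SNORA17 sequence. It is given for Gm15619 at chr9:105236301-105236380 (plus strand).
Gm15619 and 4 others: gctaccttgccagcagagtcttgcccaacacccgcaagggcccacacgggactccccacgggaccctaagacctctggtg
These include the highest processed transcript peak and 2 of the 4 highest lincRNA peaks.

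A second family of 26 peaks on 12 chromosomes held 9 of the 216. They were A730099G02Rik, AC125028.1, Gm17496, Gm17644, Gm17699, SNORD115, SNORD88 and 2 U6 genes. A stretch of it is shown for the peaks assigned to 4 genes, with differences from the U6 peak in capitals. It lies at chr16:62569931-62570010 (plus) for U6, chr1:130670424-130670503 (minus) for Gm17699, chr16:95238449-95238528 (plus) for Gm17496 and chr10:48945244-48945323 (minus) for A730099G02Rik. The U6 gene itself, at chr16:62570862-62570965, lay outside its peak, so the stretch is not U6 sequence.
U6 (chromosome 16): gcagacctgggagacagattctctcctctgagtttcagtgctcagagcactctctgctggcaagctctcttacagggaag
Gm17699: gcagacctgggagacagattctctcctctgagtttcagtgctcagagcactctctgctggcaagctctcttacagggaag
Gm17496: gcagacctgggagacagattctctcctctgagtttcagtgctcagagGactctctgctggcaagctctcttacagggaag
A730099G02Rik: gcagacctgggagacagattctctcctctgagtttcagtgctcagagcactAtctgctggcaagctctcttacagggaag
The scores of these 4 peaks were 1385, 567, 532 and 464. The stretches at Gm17496 and A730099G02Rik each differed from that of the U6 peak at 1 base of 80. Of the 7 peaks in a further family, 5 were the miRNA genes Mir692-1, Mir692-2a, Mir692-2b, AC115005.1 and AC123859.1, and 2 the pseudogenes Gm12164 and Gm15590. The best match to miR-692 had 1 mismatch in AC115005.1 and 0 in the others. In a family of 3 lincRNA peaks on chromosome 9, 4930520O04Rik (310), Gm17694 (227) and Gm17683 (132), Gm17694 and Gm17683 each differed from the first at 4 of 80 bases.

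By chromosome, the peaks at non-coding RNA genes were most numerous on chromosome 11, with 39 of 216 (18.1%, interval 13.2 to 23.8%), against 9.90% of the other peaks. Of the 159 peaks at lincRNAs and processed transcripts, 34 (21.4%) lay there, compared with 12.6% of the annotated genes of these classes (483 of 3845). Chromosome 17 held 18 (8.33%, against 4.58% of the other peaks). Chromosome 2 held 23 (10.6%, against 7.98% of the other peaks), but its share of the 159 was 11.3%, against 15.3% of the annotated genes of these classes. The X chromosome held 3 (1.39%, against 1.31% of the other peaks), among them Xist and Gm17463. Its share of the 159 was 1.26% (2 peaks, interval 0.153 to 4.47%), against 4.58% of the annotated genes of these classes.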

How the data were processed

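DNA from anti-V5 ChIP of V5-Dppa2 CGR8 cells and of untagged CGR8 cells had been sequenced, with 1 library each. The deposited peak list gives a score by the authors, which is the −log10 of the p-value from MACS multiplied by 10. Low-complexity reads had been discarded and the rest aligned with Bowtie 0.12.7 to mm9 (seed of 36 bases, at most 2 mismatches, best alignment reported). After removal of duplicates, MACS 1.4.2 was run with a shift size of 75 bp, and peaks with 100 reads or more and a p-value up to 1e-10 were kept. Picard 1.81 is named in the submitters' processing notes. Bowtie, MACS and Picard versions are as given there or in the methods. Positions refer to interval midpoints, as summits are not in the list. Starts were increased by 1 to give 1-based positions.

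The nearest TSS was taken over all transcripts of GENCODE M1 on mm9, with ties given to the first gene name in alphabetical order. A gene counted as bound with a midpoint within 1 kb of any TSS. Repeated sequence was measured as the share of 36-base words that mm9 holds at another place on either strand, and shared sequence with megablast. No repeat annotation was used. RefSeq names, classes and miRNA sequences were matched by symbol or synonym on the same chromosome, and no RefSeq coordinate was used. The steps were checked on simulated data. Tools were samtools 1.23.1, BLAST 2.17.0 and Python 3.11.15 with scipy 1.17.1, numpy 2.4.6, numba 0.67.0, pandas 2.3.3, networkx 3.6.1 and matplotlib 3.10.9.

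No test was made, as each condition had 1 library and peaks are not replicates. The groups of peaks, gene lists and the alternatives were chosen with earlier results of these data known. Genes named are all small RNA and host genes, the 10 highest lincRNA and processed transcript peaks, members of the list of known lncRNAs, and genes whose name is not a Gm, Rik or clone name. Others named in families of shared sequence, at distances above 1 kb or with 2 peaks were chosen after their values were seen.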

Additional observations from a re-analysis of the deposited data

How the results depend on the processing

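The alternatives were a score of at least 200, 1 start per gene, merging of nearby peaks, whole intervals for midpoints, wider or narrower windows, no protein-coding TSS within 1 kb, other CpG windows and stricter limits for shared sequence. At a score of at least 200, 140 peaks were left, 42 of them at lincRNAs and 0 at host genes, 28 had a protein-coding TSS within 1 kb, and 6.91% of lincRNA genes had a peak, against 5.97% of all genes and 8.05% of protein-coding genes. Without a protein-coding TSS within 1 kb, 45 lincRNA peaks were left. With midpoints within 500 bp of the TSS, 37 small RNA peaks were left, the median score was 230, and 8.48% of lincRNA genes had a peak, against 8.83% of all genes and 12.6% of protein-coding genes. All other alternatives moved counts by less than 1.5 times and left medians and shares within their 95% intervals. These intervals treat peaks or genes as independent draws and cover no error between libraries, so they serve only as a yardstick. Leaving out peaks that share sequence, an alternative chosen after seeing the data, left 181 peaks (56 at lincRNAs, 44 at small RNA genes and 3 at host genes) with a median score of 259. No paired analysis was possible because each condition had 1 library. The depth is unknown, so the absence of a gene from the list says nothing of weaker binding.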
